A study of Homo sapiens with 2 samples.

Results

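The 6 genes described here, SOX2, SOX9, PAX6, LHX2, EMX1 and EMX2, code for transcription factors of radial glia (RG), the neural stem cells of the developing cortex. They were chosen by gene name and are 6 of the 62704 genes listed in each of 2 split-seq libraries. Split-seq labels fixed cells or nuclei with successive rounds of well barcodes, so that each barcode combination stands for 1 cell or nucleus. All material came from H9, an established human embryonic stem cell line, grown into cerebral organoids, which are 3-dimensional cultures that form brain-like tissue. The library of cells held control organoids (CO) of days 45, 55 and 70, organoids dissociated at day 45, reaggregated and collected at days 48, 55 and 70 (DISS), and organoids moved at day 13 from Matrigel into 3% agarose and collected at day 55 (CONS). The library of nuclei held day 45 CO, taken from whole tissue and from a suspension of single cells. All groups shared the H9 line and the organoid kit, and every value below concerns 1 line.

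RG line the ventricles of the cortex, divide there, and give rise to intermediate progenitors (IPC) and, directly or through IPC, to excitatory neurons. SOX2 is an HMG-box factor that holds neural cells in the progenitor state, and SOX9 is an HMG-box factor of another subfamily with roles in neural stem cells and glia. PAX6, a paired-box and homeodomain protein, and LHX2, a LIM-homeodomain protein, specify cortical progenitors. LHX2 is known for restraining the fate of the cortical hem, a signalling centre at the medial edge of the cortex. EMX1 and EMX2 are homeodomain proteins of the dorsal telencephalon. EMX2 is known for patterning cortical areas, and EMX1 is known to stay on in cortical excitatory neurons.

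All 6 genes are annotated as protein-coding on GRCh38 (GENCODE). SOX2 is a single-exon gene of 2512 bases on the plus strand (chr3:181711925-181714436) and lies within an intron of the long non-coding RNA SOX2-OT on the same strand. SOX9 spans 5397 bases (chr17:72121020-72126416, plus strand) and EMX2 spans 7102 bases (chr10:117542445-117549546, plus strand). PAX6 spans 33183 bases on the minus strand (chr11:31784779-31817961), LHX2 spans 31632 bases (chr9:124001670-124033301, plus strand), and EMX1 spans 19812 bases (chr2:72916260-72936071, plus strand). On the opposite strand, exons of ELP4 cover 25.4% of the exonic bases of PAX6, and exons of EMX2OS cover 10.7% of those of EMX2. Whether the counting kept strands apart is not given in the sources used here, so reads from these stretches cannot be told apart.

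To show the sequence next to these genes, the 250 bases before the RefSeq start are given for those with a RefSeq entry (GRCh38.p14) outside their own exons, 5′ to 3′ in the direction of the gene. Of the 6 genes, 4 had an entry, and the window of EMX2 lay wholly within its own annotated exon and is not shown. Capitals mark 2 letter strings searched on both strands, CCAAT (the CCAAT box) and GGGCGG (the GC box), in whichever direction they were found. The SOX2 window is chr3:181711675-181711924, the PAX6 window is the outermost of 9 listed starts at chr11:31817962-31818211, and the LHX2 window is chr9:124011518-124011767. The LHX2 window lies inside the GENCODE span of the gene, since the RefSeq start used for it is downstream of the GENCODE start.
SOX2: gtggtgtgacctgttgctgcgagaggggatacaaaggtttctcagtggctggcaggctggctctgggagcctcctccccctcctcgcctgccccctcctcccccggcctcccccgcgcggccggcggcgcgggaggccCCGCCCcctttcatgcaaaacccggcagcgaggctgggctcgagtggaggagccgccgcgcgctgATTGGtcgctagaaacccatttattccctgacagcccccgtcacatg
PAX6: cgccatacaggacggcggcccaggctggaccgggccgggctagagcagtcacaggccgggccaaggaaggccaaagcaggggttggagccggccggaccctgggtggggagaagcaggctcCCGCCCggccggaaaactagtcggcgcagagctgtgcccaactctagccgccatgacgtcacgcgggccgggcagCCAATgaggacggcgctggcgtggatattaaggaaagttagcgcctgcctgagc
LHX2: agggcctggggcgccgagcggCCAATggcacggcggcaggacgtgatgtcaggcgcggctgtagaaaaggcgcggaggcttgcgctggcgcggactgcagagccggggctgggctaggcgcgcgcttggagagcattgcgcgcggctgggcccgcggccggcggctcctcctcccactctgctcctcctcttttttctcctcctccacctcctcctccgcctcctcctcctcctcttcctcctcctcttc
CCAAT was found once in each of these windows, at 47, 54 and 229 bases before the start of SOX2, PAX6 and LHX2, and it was present in 32.0% of 35116 promoter windows of this length. GGGCGG was found once in the SOX2 window and once in the PAX6 window, against 42.6% of all windows. ACAAT, the letters of a SOX core, TAATTA, the letters of a homeodomain core, and TATAAA were not in these 3 windows, against 24.6%, 4.35% and 10.7% of all windows. These are matches of letters and no more.

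After limits on genes, transcripts and mitochondrial share, 20178 cells (median 2615 transcripts) and 14228 nuclei (median 3890) remained. The deposited barcodes of a library carry 1 sample name, so each library was 1 sample, CO, DISS and CONS could not be compared, and no test between conditions was possible. Intervals are 95% exact intervals that cover counting error only, and the SD given is that between sub-libraries, 8 of cells and 2 of nuclei, which is technical. The libraries share 99 barcode names. Well A8 of the first barcoding round stood apart in the cells, holding 76.8% to 95.6% of 4 clusters, and RNA outside cells was plentiful: barcodes of only 10 to 100 transcripts, far below a cell, carried all 6 genes.

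Clusters were built without the 6 genes and without their neighbouring transcripts, and named from markers. Among cells, 1 cluster of 1602 barcodes was RG-like, with 8 of 12 RG markers (the list holds SLC1A3, HES1 and FABP7) and FGFR3 among its leading genes, and among nuclei there were 2 such clusters with 2556 barcodes, each with 6 of 12. The IPC-like class was not alike in the libraries. Its cluster of cells, led by EBF2, NHLH1 and EOMES, also had the highest summed level of Cajal-Retzius markers among the clusters of cells (4.93 CP10K, counts per 10000 transcripts), whereas among nuclei EBF2 and CNTN2 were leading genes of a separate unnamed cluster and Cajal-Retzius markers were highest in a cluster of their own (24.8). The defining lists of RG, IPC, excitatory neurons and choroid plexus, the secretory epithelium that makes cerebrospinal fluid, each had all their genes above 0 in both libraries. Clusters named for dividing cells, IPC, excitatory neurons and choroid plexus were found in both libraries, and cortical hem-like and Cajal-Retzius-like clusters, the last being among the earliest cortical neurons, were found among nuclei. Among cells, a separate cluster of 716 barcodes was led by RELN and EBF3, both Cajal-Retzius markers, but was given no name. The values below are levels as counts per 10000 transcripts (CP10K), compared only within a gene, and a fold is the ratio of 2 such levels.

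Of the 6 genes, 5 were at least 2-fold higher in RG-like than in excitatory neuron-like barcodes in both libraries. Among cells, the share of all 17787 genes with at least 100 counts over both classes that were at least 2-fold higher in RG-like barcodes was 6.44%, and among nuclei it was 17% of 13036. The median log2 fold of the 6 genes was 2.09 among cells and 3.00 among nuclei, against 0.03 and 0.21 over all genes compared. EMX1 was the gene short of 2-fold in both. On the mean of log values per barcode in place of summed counts, 3 of the 6 genes passed 2-fold among cells and 1 among nuclei. That value is the exponential of a difference in mean log values and not a ratio of levels, so 2-fold there is another limit. With at most 10% mitochondrial transcripts LHX2 was at 1.96-fold among nuclei, which left 4.

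SOX2 stood at 3.502 ± 0.284 CP10K (SD, n = 8) in RG-like cells, at 2.05 in dividing progenitor-like cells, at 1.31 in choroid plexus-like cells, at 0.815 in IPC-like cells and at 0.644 ± 0.136 in excitatory neuron-like cells. In this order, sub-library ranges overlapped between choroid plexus and IPC (from 1.17 to 1.496 and from 0.642 to 1.17) and between IPC and neurons. In nuclei, SOX2 stood at 1.25 ± 0.0551 (SD, n = 2) in the RG-like class, 1.24 in the cortical hem-like, 1.15 in the dividing, 0.469 in the IPC-like, 0.327 in the choroid plexus-like, 0.2503 in the Cajal-Retzius-like and 0.0892 in the excitatory neuron-like class. Of the neighbours in this order, RG-like and hem-like nuclei had overlapping sub-library ranges. Overlap here and below is that of sub-library ranges, of which nuclei had only 2, and counting intervals of nuclei also overlapped for SOX2 between the hem-like and dividing and between the choroid plexus-like and Cajal-Retzius-like classes, for SOX9 between IPC-like and neurons, for LHX2 between neurons and Cajal-Retzius-like, and for EMX1 between Cajal-Retzius-like and hem-like. These orders cover classes named for a cell type and leave out the class named for glycolytic genes, which among nuclei held SOX2 at 1.64, SOX9 at 0.727, PAX6 at 2.28, LHX2 at 2.99, EMX1 at 0.878 and EMX2 at 1.44 CP10K. They also leave out the unnamed clusters, with 6951 of the 20178 cells and 3398 of the 14228 nuclei. Unnamed cells held SOX2 at 1.87, SOX9 at 0.497, PAX6 at 1.58, LHX2 at 2.45, EMX1 at 0.538 and EMX2 at 1.38 CP10K. SOX2 was 5.44-fold higher in RG-like than in excitatory neuron-like cells (interval 5.14 to 5.75) and 14.0-fold higher among nuclei (11.7 to 17.1).

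SOX9 followed the same order among cells. It stood at 0.970 ± 0.0825 CP10K (SD, n = 8) in RG-like cells, 0.528 in dividing, 0.394 in choroid plexus-like and 0.230 in both IPC-like and excitatory neuron-like cells, where the ranges overlapped. Among nuclei, SOX9 stood at 0.487 in the RG-like class, 0.286 in the hem-like, 0.279 in the dividing, 0.118 in the choroid plexus-like, 0.0838 in the IPC-like, 0.0597 in the excitatory neuron-like and 0.0225 in the Cajal-Retzius-like class. The hem-like and dividing classes overlapped, as did the choroid plexus-like and IPC-like classes. SOX9 was 4.22-fold higher in RG-like than in excitatory neuron-like cells (3.82 to 4.65) and 8.16-fold higher among nuclei (6.45 to 10.4).

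PAX6 and LHX2 differed between dividing and RG-like cells by less than the spread between sub-libraries. PAX6 stood at 2.81 ± 0.258 CP10K (SD, n = 8) in RG-like, 2.67 in dividing, 1.54 in IPC-like, 0.638 in excitatory neuron-like and 0.617 in choroid plexus-like cells. LHX2 stood at 3.82 ± 0.172, 3.74, 2.76, 1.13 and 0.593 in the same classes. For both genes the RG-like and dividing ranges overlapped, and for PAX6 those of neurons and choroid plexus did too. Among nuclei, PAX6 was highest in the dividing class (2.52), next in the RG-like (2.16) and IPC-like (2.11) classes, which overlapped, and then 0.528 in the hem-like and 0.523 in the Cajal-Retzius-like class, which also overlapped, and 0.402 in the choroid plexus-like and 0.245 in the excitatory neuron-like class. LHX2 in nuclei was highest in the dividing (3.62) and IPC-like (3.39) classes, which overlapped, followed by 3.03 in the RG-like, 1.15 in the excitatory neuron-like, 1.09 in the Cajal-Retzius-like, 0.814 in the choroid plexus-like and 0.800 in the hem-like class. The choroid plexus-like and hem-like classes overlapped for LHX2. RG-like over excitatory neuron-like folds were 4.41 for PAX6 and 3.39 for LHX2 among cells, and 8.82 and 2.62 among nuclei.

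EMX1 and EMX2, which are paralogs, did not share an order. EMX1 was highest in the IPC-like class, with 0.851 CP10K against 0.843 in dividing, 0.657 ± 0.0821 (SD, n = 8) in RG-like, 0.379 in excitatory neuron-like and 0.118 in choroid plexus-like cells, and the first 3 of these overlapped. In nuclei the order was clearer, with 1.84 in the IPC-like, 1.25 in the dividing, 1.00 in the RG-like, 0.691 in the excitatory neuron-like, 0.223 in the choroid plexus-like, 0.180 in the Cajal-Retzius-like and 0.0954 in the hem-like class. For EMX1 the ranges of the choroid plexus-like and Cajal-Retzius-like classes just overlapped. EMX2 stood at 2.22 ± 0.291 CP10K (SD, n = 8) in RG-like, 2.07 in dividing, 1.67 in choroid plexus-like, 1.31 in IPC-like and 0.513 in excitatory neuron-like cells, with overlapping ranges down to the IPC-like class. In nuclei EMX2 stood at 0.903 in the RG-like, 0.813 in the IPC-like, 0.793 in the dividing, 0.763 in the hem-like, 0.520 in the choroid plexus-like, 0.222 in the Cajal-Retzius-like and 0.115 in the excitatory neuron-like class. The first 4 of these overlapped pairwise in sequence.

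**Figure D1:**
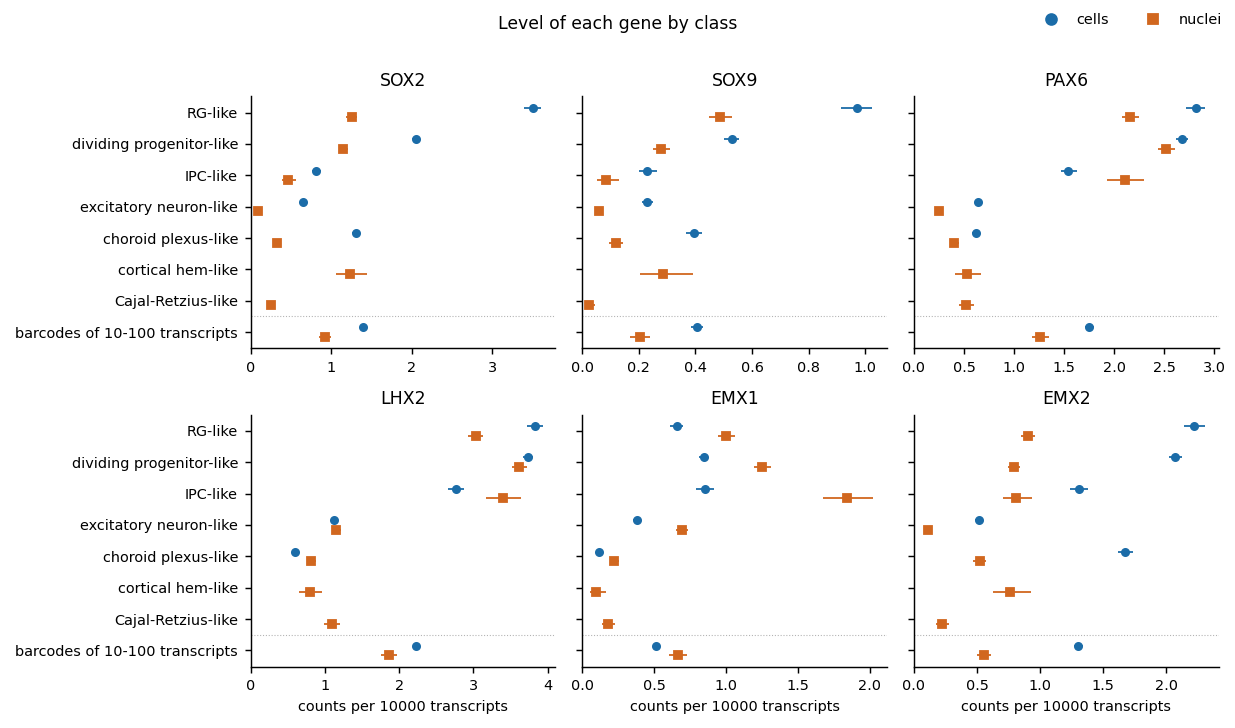
Level of each of the 6 genes (counts per 10000 transcripts, horizontal axis) in each class of cells (circles) and nuclei (squares), with bars for the 95% exact Poisson interval and barcodes of 10 to 100 transcripts in the bottom row. SOX2 and SOX9 peaked in the RG-like class of cells, EMX1 in the IPC-like class of nuclei, and all 6 genes stood in the bottom row at a level above that of excitatory neuron-like barcodes, except EMX1 in nuclei (0.664 against 0.691).

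The pool of barcodes of 10 to 100 transcripts gives a measure of RNA outside cells. Its level among cells was 1.39 CP10K for SOX2, 0.406 for SOX9, 1.75 for PAX6, 2.23 for LHX2, 0.514 for EMX1 and 1.30 for EMX2. Excitatory neuron-like cells stood below the pool for each gene. How much pool RNA a barcode holds was not measured, so a level below the pool neither shows nor excludes expression. Their counts were therefore not read either way. Not all single wells lay below their pool, and EMX1 in neuron-like cells of well A12 was at 0.267 CP10K (0.176 to 0.389) against 0.127 in the pool of that well. Since neuron-like cells lay below the pool, the folds against them are not folds over the pool, and the RG-like levels stand nearer to it, such as 3.502 against 1.39 for SOX2 and 2.81 against 1.75 for PAX6. Detection was compared after thinning every barcode to 1000 transcripts and drawing as many from the pool. SOX2 was detected in 28.6% of thinned RG-like cells against 13.1% of draws, and LHX2 in 30.7% against 20.1%. SOX9 was at 8.49% against 4.15%, PAX6 at 23.9% against 16.1%, and EMX2 at 18.9% against 10.6%. For these 5 genes the intervals of the RG-like cells and of the 2000 draws did not overlap. The share of all genes separated from the pool in this way was not computed, so this count has no background beside it. EMX1 was detected in 4.99% of RG-like cells (3.98 to 6.18) and in 5.05% of draws, so after thinning it could not be told from background in RG-like cells. On all counts EMX1 stood at 0.657 CP10K in RG-like cells (0.612 to 0.703) against 0.514 in the pool (0.490 to 0.538), and these intervals did not overlap. Against the pool of the same well, where at least 50 RG-like cells were present, its interval lay above only in wells D3, D9, D10 and D11. In wells A1, C6 and D7 its level was below that pool. After thinning, EMX1 in IPC-like cells was at 8.58% (6.93 to 10.5). Without thinning, the shares in RG-like cells ran from 28.2% for EMX1 to 75.2% for LHX2.

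In thinned RG-like nuclei all 6 genes stood above the pool of their own library, summed over wells. Here too the share of all genes that did so was not computed. LHX2 was detected in 25.4% against 17.0% of draws, PAX6 in 19.7% against 11.9%, and SOX2 in 13.3% against 8.55%. EMX1 was at 9.08% against 6.60%, EMX2 at 8.84% against 6.05%, and SOX9 at 4.66% against 2.20%. Both kinds of barcodes were therefore separated for EMX1 after thinning in nuclei and not in cells. EMX1 in IPC-like nuclei was at 18.1%, SOX2 there at 3.72%, below the draws. On all counts, RG-like nuclei were also set against the pool of the same well, where at least 50 were present. The interval of SOX2 held that pool level in well A8 (1.03 to 1.57 CP10K, pool 1.27) and well A9 (0.806 to 1.28, pool 0.996). So did that of EMX2 in well A9 (0.448 to 0.823, pool 0.581) and that of EMX1 in well A11. In the other comparisons by well, the interval lay above the pool.

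The folds in RG-like over excitatory neuron-like cells depended on which clusters were counted as neurons. One of the 3 clusters had only 6 of 12 neuronal markers and led with non-coding transcripts, another had 3 of 12 and 95.6% of its 91 barcodes from well A8, and 795 of the 1720 SOX2 counts in the class came from well A8. With well A8 left out, SOX2 was 7.45-fold and PAX6 5.84-fold higher. Against the single cluster with 10 of 12 markers, an alternative chosen after seeing the data, the folds were 16.2 for SOX2, 9.35 for SOX9, 8.54 for PAX6, 7.24 for EMX2, 3.84 for LHX2 and 1.49 for EMX1. Among nuclei, leaving out the neuron-like cluster led by other genes moved PAX6 to 5.44-fold, and the count of 5 genes was kept under each of these choices.

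Between RG-like and IPC-like barcodes, SOX2 and SOX9 were at least 2-fold higher in the RG-like class of both libraries and the other 4 genes were within 2-fold. The background was 7.96% of genes at least 2-fold higher in RG-like cells and 10.3% in RG-like nuclei, and 5.24% and 4.86% at least 2-fold lower. SOX2 was 4.30-fold higher among cells (3.97 to 4.65) and 2.67-fold among nuclei (2.20 to 3.27), and SOX9 4.22-fold and 5.82-fold. PAX6 was 1.82-fold higher in RG-like cells and 1.02-fold in RG-like nuclei (0.930 to 1.13), where its interval included 1. EMX1 was lower in the RG-like class, at 0.771 of the IPC-like level among cells and 0.545 among nuclei.

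Against excitatory neuron-like barcodes, the IPC-like class was at least 2-fold higher in 4 of the 6 genes among cells (background 2.02%) and in 5 of the 6 among nuclei (background 12.2%). PAX6 was 2.42-fold higher in IPC-like cells and 8.61-fold higher in IPC-like nuclei. Of the 4 genes among cells, PAX6 in the IPC-like class was below the pool of barcodes of 10 to 100 transcripts (1.54 against 1.75 CP10K). EMX2 was level with that pool (1.31 against 1.30), and LHX2 (2.76 against 2.23) and EMX1 (0.851 against 0.514) were above it. SOX9 was level with neurons among cells (1.00-fold, interval 0.851 to 1.17), and its interval among nuclei ran from 0.815 to 2.31. EMX1 was 2.25-fold and 2.66-fold higher in the IPC-like class.

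Ratios of counts between members give the same contrast without the library total. The EMX1 to EMX2 ratio was 0.296 in RG-like cells (0.273 to 0.320), 0.651 in IPC-like cells and 0.737 in excitatory neuron-like cells. Among nuclei it was 1.11, 2.26 and 6.01 in these classes and 0.125 in the hem-like class (13 counts of EMX1). The PAX6 to SOX2 ratio went from 0.803 in RG-like to 1.89 in IPC-like cells, and from 1.72 to 4.49 among nuclei. Levels of PAX6 and SOX2 in IPC-like cells, and of EMX1 and EMX2 in excitatory neuron-like cells, were below those of barcodes of 10 to 100 transcripts, as were SOX2 in IPC-like, EMX2 in excitatory neuron-like and EMX1 in hem-like nuclei, so these ratios include counts no higher than in that pool.

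**Figure D2:**
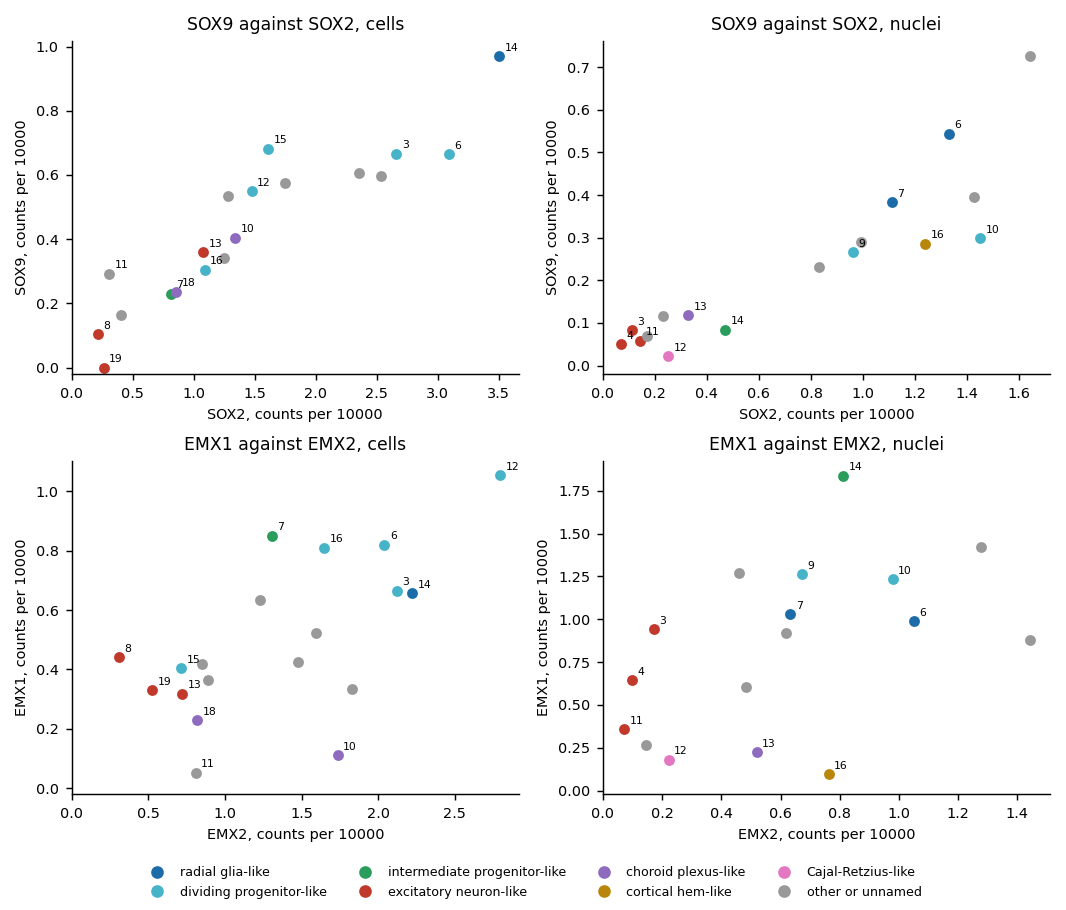
Each point is 1 cluster (19 of cells, 17 of nuclei), coloured by class and numbered where named, with the level of SOX9 against SOX2 in the upper panels and of EMX1 against EMX2 in the lower panels, all in counts per 10000 transcripts. SOX9 and SOX2 lie along 1 line (r = 0.90 and 0.91 on the log2 scale), while the choroid plexus-like cluster 10 of cells and the hem-like cluster 16 of nuclei hold EMX2 with little EMX1.

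Across clusters, SOX2 and SOX9 varied together most closely of the members by the lower of both correlations, with Pearson r of log2(CP10K + 0.1) = 0.90 over 19 clusters of cells and 0.91 over 17 of nuclei. LHX2 and EMX1 followed with r = 0.94 and 0.87, whereas EMX1 and EMX2 had r = 0.44 and 0.43, and EMX1 and SOX2 0.41 and 0.17. These are descriptions over clusters that share a library, and clusters differ in depth. Of 4076 genes ranked by the lower of both correlations, those most like SOX2 included TCF7L1 (0.89 and 0.90) and ERBIN. For SOX9 they were SOX2, ZFP36L1 and BICC1, and for PAX6 they were DCBLD2 (0.92 and 0.95), BMPR1A and MSANTD2. LHX2 was most like PHIP, EMX1 and RASGRP1, the last an IPC marker used in naming clusters. EMX1 was most like NFIB-AS1 (0.93 and 0.92), TMEM131L and PLCB1, and EMX2 was most like CEMIP2, SOD2 and JADE1, with r of 0.83 to 0.92.

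Dividing progenitor-like barcodes held the 6 genes at levels within 2-fold of the RG-like class in both libraries. The background was 4.04% of genes at least 2-fold higher and 2.16% at least 2-fold lower in dividing cells, and 3.56% and 1.92% in dividing nuclei. SOX9 came closest to the limit, at 0.544 of the RG-like level among cells and 0.572 among nuclei. SOX2 was at 0.586 among cells and 0.920 among nuclei. EMX1 was 1.28-fold and 1.25-fold higher in dividing barcodes. The 5 dividing clusters of cells were not alike, and cluster 12 among them had the highest summed level of RG markers of the 19 clusters (47.3 CP10K), although it was named for division. Cluster 12, led by SV2C and GRIK1 with 10 of 11 division markers, had the highest levels of LHX2 (4.65), EMX2 (2.79) and EMX1 (1.05) of the 19 clusters, with SOX2 at 1.48, while cluster 6, with all 11 division markers, had SOX2 at 3.09.

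Outside the cortical lineage the members came apart. Between RG-like and choroid plexus-like barcodes, 5 of the 6 genes were at least 2-fold higher in the RG-like class of both libraries (background 5.9% and 10.3%), led among cells by LHX2 at 6.45-fold (6.03 to 6.90), EMX1 at 5.56-fold and PAX6 at 4.56-fold. EMX2 was the exception, at 1.33-fold among cells and 1.74-fold among nuclei. In thinned choroid plexus-like cells, EMX2 was detected in 15.3% against 10.6% of draws, with intervals that did not overlap, whereas in choroid plexus-like nuclei it was at 4.21% (2.98 to 5.76) against 6.05% of draws. SOX2 in choroid plexus-like cells, at 11.98%, did not exceed its draws. The hem-like nuclei held SOX2 at the RG-like level and little EMX1, with LHX2 at 0.800 CP10K against 3.03 in RG-like nuclei.

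PAX6 was as high as in any of the 19 clusters of cells in a cluster of 83 barcodes led by DCT, with MITF, PMEL and TYR, genes of pigment cells, and with PAX3 among its first 10 genes. It stood at 3.68 CP10K there (3.21 to 4.21), beside 3.63 in the dividing cluster 12, whereas LHX2 was at 0.0861 (5 counts), EMX1 at 0.0516 (3 counts), SOX2 at 0.310 and EMX2 at 0.809. Of these barcodes, 79.5% came from well D12. The cluster was not given a cell type name, although 3 of 7 markers of eye field or pigment epithelium met the naming rule, and that name was set aside because PAX3 and the leading genes did not point to 1 type. ELP4, whose exons overlap those of PAX6, was also high there, at 4.41 CP10K against 2.50 in RG-like cells. In nuclei, the highest SOX2 (1.64), SOX9 (0.727) and EMX2 (1.44) levels were found in cluster 5, named for glycolytic genes (4 of 10 markers) and not for a cell type. Its leading genes were the heat-shock genes HSPH1, HSP90AA1 and HSP90AB1 and the mitochondrial ribosomal RNAs MT-RNR1 and MT-RNR2, and its median depth was 2250 transcripts, and the part of these in its levels was not tested.

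RG-like cells often held transcripts of several members. After thinning to 1000 transcripts, 72.0% of RG-like cells had at least 1 of the 6 genes, 32.6% (30.4 to 35.0) at least 2, 9.24% at least 3 and 1.56% at least 4. At least 2 were found in 25.8% of dividing progenitor-like cells (24.5 to 27.1), the class nearest to RG-like cells on this measure. The share was 13.1% in IPC-like, 11.95% in glycolytic, 7.09% in choroid plexus-like and 2.85% in excitatory neuron-like cells, and 14.2% in draws from the background pool. Among nuclei, at least 2 were found in 18.9% of RG-like (17.4 to 20.5), 18.1% of IPC-like (14.99 to 21.5), 2.22% of excitatory neuron-like and 1.48% of choroid plexus-like barcodes, and in 7.7% of draws. Dividing nuclei (20.97%, 19.4 to 22.7) and glycolytic nuclei (22.96%, 19.9 to 26.3) were no lower than RG-like nuclei, so the share was not particular to the RG-like class. RG-like and IPC-like nuclei could not be told apart on this measure, whereas RG-like and IPC-like cells were, the IPC-like cells being those that also carried Cajal-Retzius markers. The share rests on depth, and unthinned it was 85.4% in RG-like cells.

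**Figure D3:**
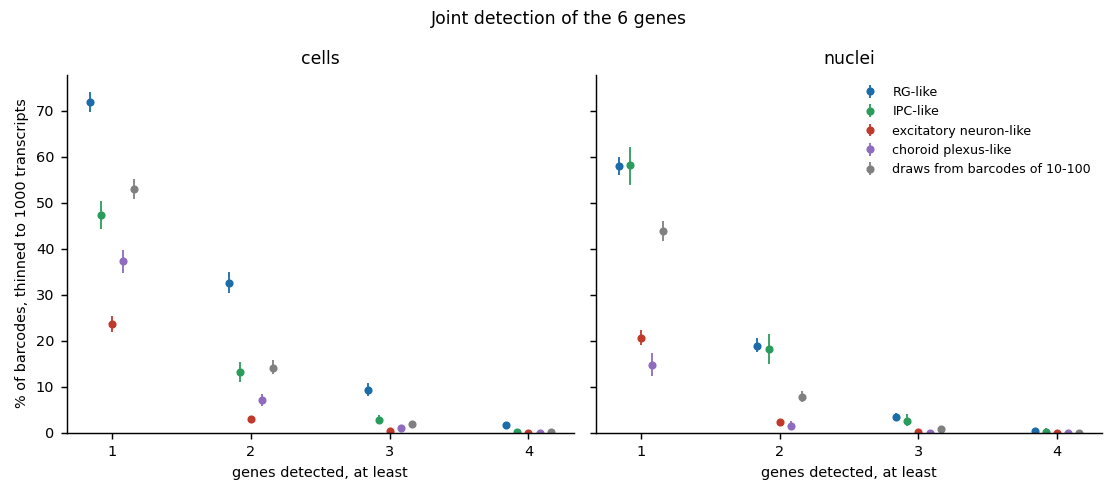
Percent of barcodes, thinned to 1000 transcripts, with at least 1, 2, 3 or 4 of the 6 genes detected (horizontal axis), by class in cells and nuclei, with 95% exact binomial intervals. RG-like cells lie above the draws from barcodes of 10 to 100 transcripts at each number (32.6% against 14.2% at 2 genes), and IPC-like nuclei lie beside RG-like nuclei. The dividing and glycolytic classes are not drawn.

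Within the RG-like class the genes were detected together about as often as their single shares give. For SOX2 and PAX6, 7.24% of thinned RG-like cells had both, where the product of the single shares is 6.84%. For PAX6 and EMX2 it was 4.12% against 4.51%. Over the 15 pairs, the observed share was 0.914 to 1.36 times the product in cells and 0.898 to 1.29 times in nuclei, and the interval of each pair held the product.

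Nuclei and cells differed most for the short genes. In the RG-like class SOX2 in nuclei was at 0.358 of its level in cells (0.336 to 0.380), EMX2 at 0.407 (0.378 to 0.437) and SOX9 at 0.502 (0.453 to 0.557). PAX6 was at 0.768, LHX2 at 0.793 and EMX1 at 1.53 (1.39 to 1.67). At the 2-fold limit, 2 of the 6 were lower in nuclei and none was higher, against a background of 11.4% lower and 0.822% higher among 13753 genes, whose median log2 fold was -0.25. With another clustering seed EMX2 was at 0.521 and SOX2 alone stayed past the limit, at 0.432, at Leiden resolution 2 SOX9 also passed, at 0.469, which made 3, and on the mean of log values neither passed. Over protein-coding genes, the median ratio of nuclei to cells was 0.289 for 160 genes spanning up to 3 kb, 0.577 for 3 to 10 kb, 0.729 for 10 to 30 kb, 0.854 for 30 to 100 kb and 1.03 beyond 100 kb, and it was 0.383 for 76 single-exon genes. SOX9, PAX6 and LHX2 lay within the quartiles of their span class, as did SOX2, EMX2 lay just under the lower quartile, and EMX1 lay above the upper quartile. Levels in the pools of barcodes of 10 to 100 transcripts also differed between the libraries. In nuclei against cells they were 0.926 against 1.39 for SOX2, 0.551 against 1.30 for EMX2 and 0.203 against 0.406 for SOX9. They were 1.26 against 1.75 for PAX6, 1.86 against 2.23 for LHX2 and 0.664 against 0.514 for EMX1. The parts of span and of RNA outside cells in these values were not tested. Day, condition, kit and nuclear against whole-cell RNA cannot be told apart between the libraries.

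**Figure D4:**
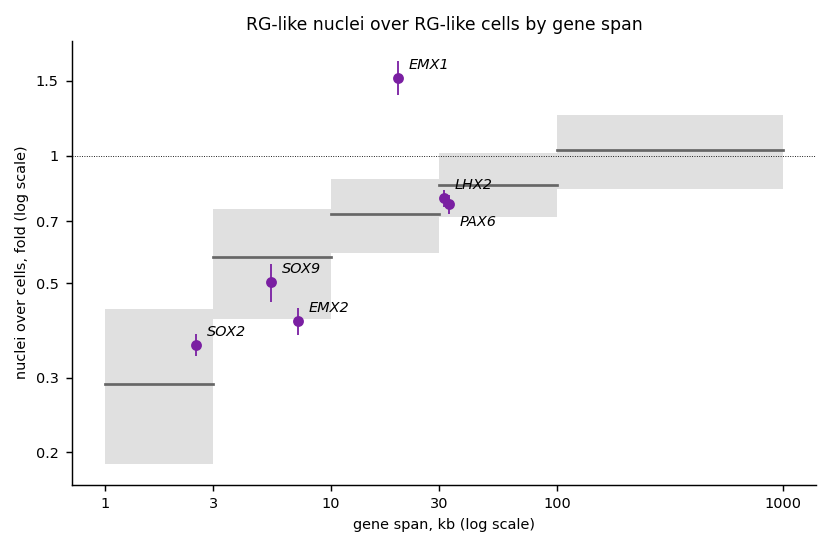
Ratio of the level in RG-like nuclei to that in RG-like cells (log scale) against the genomic span of the gene (log scale), with purple points and 95% intervals for the 6 genes and, for all protein-coding genes of each span class, the median (line) and quartiles (grey). The points go from 0.358 for SOX2 to 1.53 for EMX1, which stands above the grey band of its class.

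In the other classes the ordering was alike for some genes and not for others. EMX1 was higher in nuclei in each of the 4 classes compared, by 2.16-fold in the IPC-like (1.92 to 2.43), 1.88-fold in the choroid plexus-like, 1.53-fold in the RG-like and 1.49-fold in the dividing class. In the IPC-like class this passed the 2-fold limit, where 4.45% of genes were at least 2-fold higher in nuclei and 14.6% at least 2-fold lower, but the IPC-like clusters of both libraries differ in their Cajal-Retzius markers and leading genes, and the part of this was not tested. SOX2 was lower in nuclei in each of the 4 classes, at 0.251 to 0.575 of its level in cells, and SOX9 and EMX2 likewise at 0.298 to 0.528 and 0.310 to 0.622. The median over all genes compared was also lower in nuclei in each of these classes, with log2 folds from -0.25 to -0.18. At least 2-fold lower in nuclei were 16.2% of genes in the dividing and 16.7% in the choroid plexus-like class. PAX6 and LHX2 did not keep 1 direction. In the choroid plexus-like class above 6000 transcripts, EMX1 was at 0.252 CP10K in nuclei and 0.124 in cells. From 3000 to 6000 transcripts it was at 0.0869 (8 counts) and 0.0710, with overlapping intervals.

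Among RG-like cells, SOX2 varied more than the other members between first-round wells. These wells hold organoids whose condition is unknown, and 11 of 46 wells with RG-like cells had at least 50 of them. SOX2 ran from 1.13 CP10K in well A2 (0.927 to 1.36) over a median of 3.01 to 7.08 in well D9 (6.54 to 7.66), a 6.28-fold range, and well D11 stood next at 6.395. SOX9 ran from 0.385 over 1.00 to 1.77, a 4.59-fold range with wide counting intervals. PAX6 ran from 1.94 over 2.58 to 3.88, EMX2 from 1.11 over 2.42 to 2.87, LHX2 from 2.18 over 3.87 to 5.90 and EMX1 from 0.463 over 0.623 to 0.970, with ranges of 2.00-fold to 2.70-fold. For SOX2, the intervals of 9 of the 11 wells did not hold the pooled level.

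The pool of barcodes of 10 to 100 transcripts moved with SOX2 in the same wells. It held SOX2 at 4.27 CP10K in well D9 and 2.73 in well D11, at 0.795 in well A1 and 0.991 in well A2, where RG-like cells were at 1.27 and 1.13. In each of the 11 wells the RG-like level of SOX2 exceeded that of the pool, though in well A2 its interval held the pool level. EMX1 was below the pool of its well in wells A1 (0.495 against 0.524), C6 (0.623 against 0.766) and D7 (0.516 against 0.555). Intervals held the pool level for PAX6 in wells C6 and D7 and for EMX2 in wells A1 and A2. Those of LHX2 and SOX9 lay above it in each of the 11 wells. The part of background RNA in the spread between wells was not tested. With wells D9 and D11 left out, SOX2 was 4.60-fold higher in RG-like than in excitatory neuron-like cells.

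Between the 9 wells of nuclei with at least 50 RG-like barcodes, all from day 45 CO, the ranges were smaller than in cells except for EMX1 and EMX2. SOX2 ran from 1.01 CP10K in well A10 over 1.28 to 1.89 in well A5, a 1.87-fold range. EMX2 ran from 0.549 in well A8 over 1.00 to 2.06 in well A3 (1.45 to 2.84), a 3.75-fold range. EMX1 ranged over 2.28-fold, SOX9 over 1.99-fold, PAX6 over 1.46-fold and LHX2 over 1.40-fold. Well A10 held 54.0% of 1 of the 2 RG-like clusters of nuclei, and it was the lowest well for SOX2, SOX9 and PAX6.

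**Figure D5:**
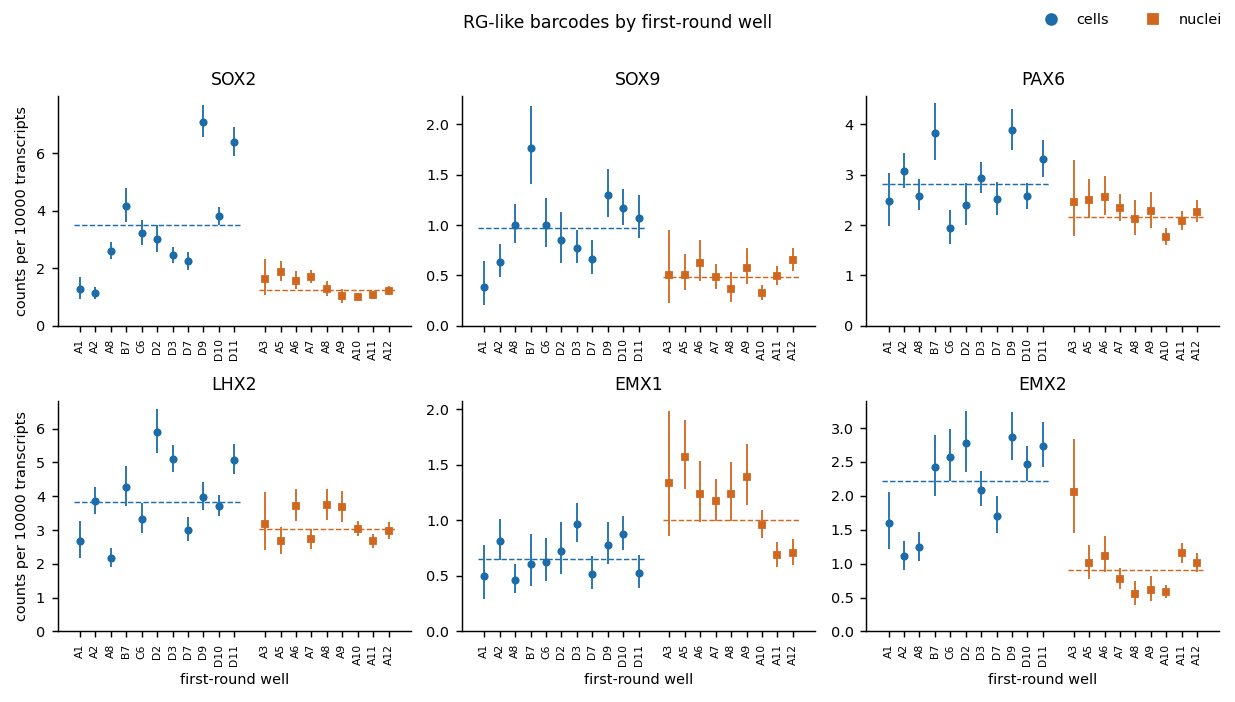
Level of each gene (counts per 10000 transcripts) in the RG-like barcodes of each first-round well with at least 50 of them, with 95% exact Poisson intervals, for cells and nuclei. SOX2 in cells spans 1.13 to 7.08, with wells D9 and D11 above the rest, while PAX6 spans 1.94 to 3.88.

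Levels of SOX2, LHX2 and PAX6 in RG-like cells showed no steady order with the depth of the barcode. SOX2 stood at 2.90 CP10K in 138 cells of 1000 to 1500 transcripts, 3.94 in 236 of up to 3000, 3.83 in 481 of up to 6000 and 3.41 in 747 deeper cells. LHX2 stood at 3.01, 4.66, 4.01 and 3.75 and PAX6 at 2.78, 2.90, 2.98 and 2.77 in these classes. SOX9 stood at 0.650, 0.855, 0.908 and 0.995, each class above the one before, with overlapping intervals of the first (0.325 to 1.16) and last (0.933 to 1.06). In RG-like nuclei SOX2 was higher in shallow than in deep barcodes, with 1.88, 1.61, 1.25 and 1.08, and the intervals of the second and last classes (1.42 to 1.82 and 0.976 to 1.19) did not overlap. EMX1 in nuclei stood at 1.41, 1.27, 1.02 and 0.846, and its intervals of the second and last classes (1.10 to 1.46 and 0.755 to 0.944) did not overlap either.

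Among the neighbouring transcripts, SOX2-OT and EMX2OS were higher in RG-like than in excitatory neuron-like barcodes, but SOX2-OT in the RG-like class was below the pool of barcodes of 10 to 100 transcripts in both libraries (5.03 against 5.71 CP10K among cells and 7.01 against 8.87 among nuclei). Over excitatory neuron-like barcodes SOX2-OT was 3.16-fold higher among cells and 8.78-fold among nuclei, EMX2OS 3.74-fold and 4.19-fold, and ELP4 1.70-fold and 3.41-fold. SOX2-OT had its own order, with 20.4 CP10K in choroid plexus-like cells, 24.8 in choroid plexus-like nuclei and 116 in hem-like nuclei, against 5.03 and 7.01 in the RG-like class. Unlike SOX2, it was higher in RG-like nuclei than in RG-like cells (1.40-fold), as was ELP4 (1.34-fold). Over clusters, PAX6 and ELP4 had r = 0.74 and 0.97, and EMX2 and EMX2OS 0.82 and 0.89. PAUPAR, SOX9-AS1 and LHX2-AS1 had too few counts to compare, and PAX6-AS1 was not matched by name.

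Of a list of 35 other transcription factors of cortical progenitors and regional identity, 6 of which were also class markers, 23 were at least 2-fold higher in RG-like than in excitatory neuron-like cells, 1 was lower, 9 were within 2-fold and 2 had under 100 counts. Among nuclei, 22 were higher, 3 lower, 2 within 2-fold and 8 had under 100 counts. The background is that given above, 6.44% and 17%. Unlike the 6 genes, these factors were not left out of the genes available for clustering, so their count is not independent of the classes. In both libraries 20 were higher, 3 of them class markers, and 1 was lower. The Notch effectors HES1 (6.24-fold and 14.8-fold) and HES5 (6.07-fold and 31.5-fold) led, and both had been used to name the class, as had GLI3, a mediator of hedgehog signalling (4.53-fold and 25.2-fold).

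The SOX2 relatives SOX3 (5.73-fold and 14.7-fold) and SOX1 (4.67-fold and 34.2-fold) were higher in the RG-like class with SOX2 itself. So were TCF7L1, a WNT pathway factor (5.16-fold and 17.1-fold), TFAP2C (5.13-fold and 20.5-fold), ID4 (5.09-fold and 12.9-fold) and NR2E1, a nuclear receptor of neural stem cells (4.56-fold and 17.8-fold). The doublesex-related factors of the medial cortex, DMRT3 and DMRTA2, were at 4.17-fold and 3.76-fold among cells and 8.97-fold and 6.54-fold among nuclei. OTX1, SOX6, TCF7L2, TSHZ2, ZIC2, NR2F1 and POU3F3 were at 2.27-fold to 3.93-fold among cells and 2.66-fold to 20.2-fold among nuclei. NFIB, which has roles in neuronal and glial maturation, was the gene that was lower in both, at 0.381 and 0.291 of the neuron-like level.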

How the data were processed

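Gene expression was measured by split-seq (Parse Biosciences Evercode WT for cells and WT Mini for nuclei) in 2 libraries of H9 organoids. The authors demultiplexed reads into 8 sub-libraries of cells and 2 of nuclei and ran the Parse pipeline on GRCh38. The deposited values are raw transcript counts for each barcode and gene, with empty barcodes kept in and background RNA not removed (1303455 and 197446 barcodes). Whether introns were counted is not given in the sources used here.

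A barcode was kept if it held over 500 genes and over 1000 transcripts, of which at most 20% were mitochondrial (95 cells and 28 nuclei failed the last limit). Counts were scaled to 10000, log-transformed and clustered in scanpy 1.11.5 on 2000 variable genes, the 6 genes and their neighbours left out, with 30 principal components, 15 neighbours and Leiden resolution 1 (seed 0, igraph 0.11.9). A cluster could be named from a list when at least 3 markers stood 1.5-fold above the rest in at least 10% of its barcodes, a rule completed after the clusters had been seen. The highest score gave the name, with 2 added for each marker among the first 10 genes. Clusters stayed unnamed where another class scored at least 0.6 of that or had clearly more markers among those genes. The 0.6 limit was not applied between RG and dividing progenitors, nor to glycolytic genes as the other class. Scrublet (expected rates 5% and 3%) marked 0 barcodes in both libraries and had not worked, so no doublets were removed.

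Folds are ratios of summed counts per 10000 with exact conditional binomial intervals, levels carry exact Poisson and shares exact Clopper-Pearson intervals (95%), and genes with fewer than 100 counts over both classes were not compared. Computations used Python 3.11.15, numpy 2.4.6, scipy 1.17.1 and pandas 2.3.3 and were tested on simulated data. With 1 sample per library, no p-values are given. The kept barcodes held 157306492 and 72162726 transcripts, and 1455 gene names occur more than once. Sequences are from RefSeq and positions from GENCODE. Named genes were the 6 members, their neighbours, the 3 genes most like each member, and the first 20 other transcription factors with at least 2-fold in both libraries ranked by the smaller fold, of which 1 is not reported here. The members, gene lists and motifs were chosen with earlier results of these data known.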

Additional observations from a re-analysis of the deposited data

Results flagged for a closer look

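LHX2 was higher in RG-like than in IPC-like cells (1.38-fold) and lower in RG-like than in IPC-like nuclei (0.893-fold). PAX6 was higher in dividing than in RG-like nuclei (1.17-fold) and slightly lower in dividing than in RG-like cells (0.9504-fold). The nuclei to cells ratio of PAX6 was 1.37 in the IPC-like class and 0.768, 0.942 and 0.652 in the RG-like, dividing and choroid plexus-like classes. That of LHX2 was 1.23 in the IPC-like and 1.37 in the choroid plexus-like class and 0.793 in the RG-like class. By depth, LHX2 was higher in choroid plexus-like nuclei than in such cells only above 6000 transcripts (0.900 against 0.602 CP10K). It was at 0.369 against 0.471 from 3000 to 6000 and at 0.295 against 0.451 from 1500 to 3000, with overlapping intervals. These differences in direction were not tested, since each library was 1 sample.

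The 6 genes also gave signal in barcodes of 10 to 100 transcripts, which enter no comparison between classes. Summed, they stood at 7.60 CP10K there among cells (26086 counts) and 5.46 CP10K among nuclei (3576 counts), above the limit that a count of 0 allows (0.000874 and 0.00458 CP10K).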

How the results depend on the processing

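No paired analysis was possible because each library was 1 sample with no replicate of its group, and for the same reason no replicate could be left out. The count of 5 genes at least 2-fold higher in RG-like than in excitatory neuron-like barcodes stayed within 1.5 times under all alternatives for both libraries except the mean of log values per barcode, which gave 3 among cells and 1 among nuclei. Those values are not ratios of levels, so 2-fold on them is another limit, and the cause of the change was not tested. The count of genes at least 2-fold apart in either direction between RG-like nuclei and RG-like cells was 2, both lower in nuclei. It became 1 with another clustering seed, 3 at Leiden resolution 2, 0 with the mean of log values and 4 at a 1.5-fold limit. These 4 include EMX1, which was higher in nuclei (1.53-fold). The share of RG-like cells with at least 2 of the genes (32.6%) was 24.6% with another seed, 29.9% with more than 2000 transcripts required, 29.97% with the highest doublet scores left out (1009 cells and 427 nuclei) and 29.3% without wells D9 and D11. It was 13.4%, 64.2% and 85.4% when thinned to 500 or 2000 transcripts or not thinned, and 72.0% or 9.24% when at least 1 or at least 3 genes were required, as the construction of these alternatives sets. Of the folds recomputed, RG-like over excitatory neuron-like in both libraries and nuclei over cells in the RG-like class, none of a member changed direction. The fold of SOX2 over excitatory neuron-like barcodes ran from 2.53 to 16.2 among cells and from 1.64 to 15.8 among nuclei, the lowest values being those of the mean of log values. Leiden resolution 0.5 gave no RG-like cluster of cells and so no value for the 3 results that need one. The classes also changed in size. Under the other settings of clustering and filtering, RG-like cells numbered 1340 to 2189, against 1602. RG-like nuclei numbered 2574 to 4629, against 2556, with 4622 for another seed. The excitatory neuron-like class of cells held 66.4% to 83.7% of its main barcodes. Alternatives on wells and on single clusters were chosen after seeing the data. Depth limits the shares of barcodes with a gene, and EMX1 in RG-like cells did not differ detectably from the pool after thinning, while its level on all counts was higher than that of the pool. Against the pool of the same well, EMX1 in these cells was lower in wells A1, C6 and D7.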
